A study of Mus musculus with 12 samples.

Results

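The odorant receptor (OR) genes described here form the receptor cluster at the outer edge of the mouse major histocompatibility complex (MHC) on chromosome 17, named Olfr90 to Olfr137. A gene was taken where a probe set of the array carried its symbol alone, without a pseudogene suffix, and where the receptor number fell in the named range. This gave 39 genes, each read by 1 probe set, of 1015 OR genes and 35556 probe sets on the array. All 39 are annotated as protein-coding genes of chromosome 17. Of these, 38 had a mean log2 value above 5 over the 12 arrays and were tested, as were 984 OR genes in all. Olfr108 was the one left out, at a mean of 4.21.

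RNA came from the main olfactory epithelium (MOE) of H2be-KO and WT mice after unilateral naris occlusion (UNO), in which the right nostril is closed by cautery so that 1 side of the nose no longer receives odors. The 4 groups were the closed side of H2be-KO mice, the open side of H2be-KO mice, the closed side of WT mice and the open side of WT mice, with 3 samples each. All mice, WT included, were operated on at 14 days of age and had been occluded for 3 weeks at 5 weeks of age, while an age tag of the same samples reads 6 months. By the series' description each sample pooled both sexes, 1 female and 1 male, but the study's figure legends give a larger number of animals for a sample, so the number pooled is uncertain. The KO allele carries a GAP43-mCherry cassette in place of the coding sequence of H2be, in mice bred to C57Bl/6. H2be is a variant of histone H2B made in olfactory sensory neurons (OSNs). Its probe set was lower in the KO on both sides, at -0.27 on the log2 scale on the closed side and -0.26 on the open side. All KO arrays lay below all WT arrays on each side, with an unadjusted p of 0.00259 and 0.00345 (limma). Adjusted over all probe sets it passed on neither side (adjusted p = 0.999 and 0.641).

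ORs are G protein-coupled receptors that sit on the cilia of OSNs and bind odorants. A mature OSN is known to use 1 allele of 1 receptor gene, so the level of an OR in whole tissue follows the number of OSNs that chose it as well as the transcript made in each. These were bulk samples, and fewer cells of a type cannot be told apart from less RNA per cell. Genes of this cluster are of interest because they lie next to MHC class I genes and are inherited together with them. No odorant or function is given here for any single receptor, and the probes of a gene can be read only against themselves: levels of different probe sets were not compared.

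Beyond the members, 6 receptor numbers of the range (Olfr98, Olfr100, Olfr102, Olfr126, Olfr128 and Olfr135) occurred only on probe sets shared with other receptors. The members Olfr90, Olfr92, Olfr97, Olfr115, Olfr127, Olfr133 and Olfr134 also occur on such shared probe sets, and their values are uncertain, since close copies may bind the same probes. Over all 35556 probe sets, r was between 0.965 and 0.978 for arrays of a shared group. It was between 0.963 and 0.977 for the others, so no array stood apart. The median log2 value of the 38 members was between 7.18 and 7.38 on the closed side of KO mice, between 7.29 and 7.46 on the open side of KO mice, between 7.26 and 7.34 on the closed side of WT mice and between 7.42 and 7.47 on the open side of WT mice. Precision is limited by having 3 arrays in a group. The standard error of a member's log2 change had a median of 0.14 for 3 arrays against 3 and 0.10 for the change averaged over genotypes.

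The first question was whether the receptors of this cluster differed between the closed and the open side of the MOE. They did so in both directions: averaged over the genotypes, 4 members (Olfr130, Olfr114, Olfr94 and Olfr123) were higher and 2 members (Olfr109 and Olfr99) were lower on the closed side with p adjusted over all probe sets. That is 6 of 38 members, or 15.8%, against 2.90% of all probe sets tested and 14.9% of the OR genes outside the cluster. With p adjusted over OR genes alone, 7 members were higher and 6 were lower, 34.2% of the members, where 26.2% of all OR genes were called. Leaving out the third closed-side array of the KO left 2 members called over all probe sets, and leaving out the second open-side array of the KO or the first or second closed-side array of the WT left 3. Over OR genes the count was 8 without the second closed-side array of the KO. With same-numbered closed and open samples fitted as blocks, Olfr94, Olfr99, Olfr114 and Olfr123 lost their calls over all probe sets. The members called only over OR genes were Olfr116, Olfr131 and Olfr132 on the higher side and Olfr90, Olfr96, Olfr97 and Olfr125 on the lower side. The changes were modest, between -0.36 and 0.50 on the log2 scale over the 38 members, while OR genes outside the cluster spanned -1.48 to 1.11. On the same arrays 6 of 8 markers of mature OSNs were higher and 5 of 6 markers of immature OSNs were lower on the closed side, and their part in the receptor changes was not tested.

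**Figure D1:**
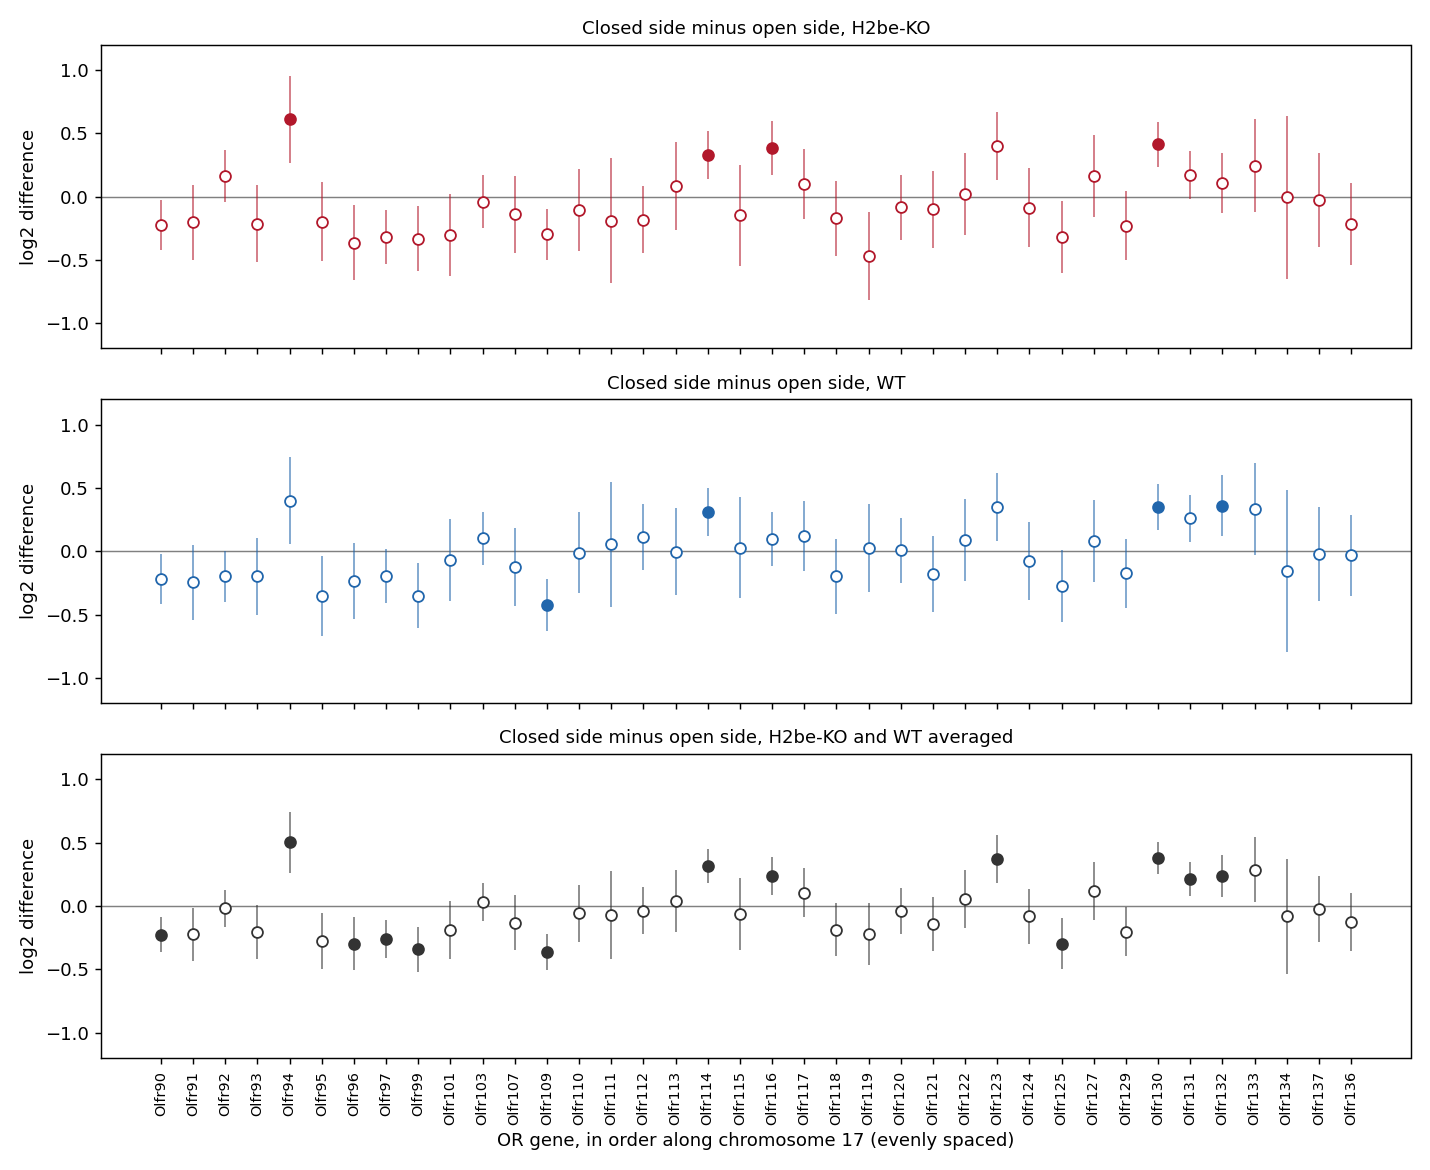
Log2 difference between the closed and the open side (vertical axis) for the 38 members in chromosome order (horizontal axis), in H2be-KO mice (top), WT mice (middle) and on average (bottom). Points are estimates of the limma fit with 95% confidence intervals, and filled points had an adjusted p under 0.05 over OR genes; in the bottom panel 7 filled points lie above 0 and 6 below.

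Olfr130 was the member with the smallest p. Its log2 level was 9.37, 9.28 and 9.34 on the closed side and 8.86, 8.89 and 9.004 on the open side of H2be-KO mice, and 9.28, 9.34 and 9.43 on the closed side and 8.95, 9.05 and 8.996 on the open side of WT mice. All 6 closed-side arrays lay above all 6 open-side arrays. The average change was 0.38 ± 0.06 (SE), or 1.3-fold (adjusted p = 0.00354 over all probe sets, limma), and it stayed past the threshold without each of the 12 arrays and under every other setting tried. Among the members it was the only one called within a single genotype over all probe sets, with a change of 0.41 ± 0.08 (SE) in the KO (adjusted p = 0.0381) and 0.35 ± 0.08 (SE) in the WT (adjusted p = 0.0937). The KO call over all probe sets was lost without any of 10 of the 12 arrays, among them every array of the KO, with adjusted p up to 0.19, with arrays centred on their medians (adjusted p = 0.0556) and with a fit to the KO arrays alone (adjusted p = 0.161), whereas its call over OR genes (adjusted p = 0.007) was kept in all 21 settings.

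Olfr114 was higher on the closed side in both genotypes. The arrays read 6.65, 6.69 and 6.77 on the closed side and 6.40, 6.48 and 6.25 on the open side in the KO, and 6.75, 6.87 and 6.85 on the closed side and 6.53, 6.46 and 6.53 on the open side in the WT. Within each genotype the sides did not overlap, with the closed side above. The change was 0.32 ± 0.06 (SE) on average (adjusted p = 0.0155, limma), 0.33 ± 0.09 (SE) in the KO and 0.31 ± 0.09 (SE) in the WT, and both single-genotype changes passed over OR genes (adjusted p = 0.0304 and 0.0355). The average lost its call over all probe sets without the third closed-side array of the KO (adjusted p = 0.0507) and with a trended, robust fit (adjusted p = 0.133), though not over OR genes. Of the single-genotype calls over OR genes, that of the KO was lost without any 1 of 5 KO arrays, with adjusted p up to 0.108, and that of the WT without any 1 of 5 WT arrays or the first open-side array of the KO, with adjusted p up to 0.113. A trended, robust fit ended both as well (adjusted p = 0.195 in the KO and 0.22 in the WT), as did a fit to the arrays of that genotype alone (0.0835 and 0.0942), and the KO call was also lost with quantile normalization or median centring.

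The member with the widest change was Olfr94. It read 6.38, 6.35 and 6.49 on the closed side and 6.004, 5.75 and 5.63 on the open side of KO mice, and 6.54, 6.41 and 6.46 on the closed side and 6.30, 5.67 and 6.24 on the open side of WT mice. Closed-side arrays again lay above open-side arrays in each genotype, and the open side of the WT was the most scattered, with 1 low array. The average change was 0.50 ± 0.11 (SE), or 1.42-fold (adjusted p = 0.0315 over all probe sets and 0.00597 over OR genes, limma). It was 0.61 ± 0.16 (SE) in the KO (adjusted p = 0.0283 over OR genes) and 0.40 ± 0.16 (SE) in the WT (adjusted p = 0.129). Leaving out any 1 of 8 arrays ended the average call over all probe sets, with adjusted p up to 0.0814, and any 1 of 5 KO arrays the KO call over OR genes, with adjusted p up to 0.0964. Quantile normalization also ended both (adjusted p = 0.0513 on average and 0.0543 in the KO), and the average call over OR genes was kept in all 19 settings.

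Olfr123 read 7.88, 7.46 and 7.79 on the closed side and 7.23, 7.23 and 7.47 on the open side in the KO, where the second closed-side array fell just below the highest open-side array. In the WT it read 7.67, 7.76 and 7.68 on the closed side and 7.21, 7.41 and 7.44 on the open side, without overlap. The average change was 0.37 ± 0.09 (SE, adjusted p = 0.0413 over all probe sets, limma). Neither genotype passed on its own over OR genes, with 0.40 ± 0.12 (SE) in the KO and 0.35 ± 0.12 (SE) in the WT (adjusted p = 0.0552 and 0.0857). The average call over all probe sets was lost without any 1 of 10 arrays, with adjusted p up to 0.114, or with no filter on low values (adjusted p = 0.052), and that over OR genes was kept in all 20 settings.

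Olfr109 was lower on the closed side. Its level was 7.37, 7.23 and 7.46 on the closed side and 7.63, 7.65 and 7.67 on the open side of KO mice, and 7.27, 7.22 and 7.10 on the closed side and 7.73, 7.62 and 7.51 on the open side of WT mice. Every closed-side array lay below every open-side array, over both genotypes. The average change was -0.36 ± 0.07 (SE), or 0.779-fold (adjusted p = 0.0114 over all probe sets, limma), and it was past the threshold in all 19 other settings. In the WT the change was -0.42 ± 0.09 (SE, adjusted p = 0.0123 over OR genes, a call lost at 0.0555 without the first open-side array of the WT and at 0.0612 with the KO arrays left out of the fit), and in the KO it was -0.30 ± 0.09 (SE, adjusted p = 0.0579).

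Olfr99 read 8.39, 8.06 and 8.23 on the closed side and 8.51, 8.60 and 8.57 on the open side in the KO, and 8.01, 8.05 and 8.39 on the closed side and 8.49, 8.48 and 8.53 on the open side in the WT. The 6 open-side arrays were tightly grouped and all lay above the 6 closed-side arrays, which were spread more widely. Its average change was -0.34 ± 0.08 (SE), or 0.789-fold, at the edge of the threshold over all probe sets (adjusted p = 0.05, limma) and inside it over OR genes (adjusted p = 0.0097). Without 10 of the 12 arrays in turn the call over all probe sets was lost, with adjusted p up to 0.121, as it was with no filter (adjusted p = 0.0603) and with arrays centred on their medians (adjusted p = 0.054), while the call over OR genes was kept in all 20 settings.

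**Figure D2:**
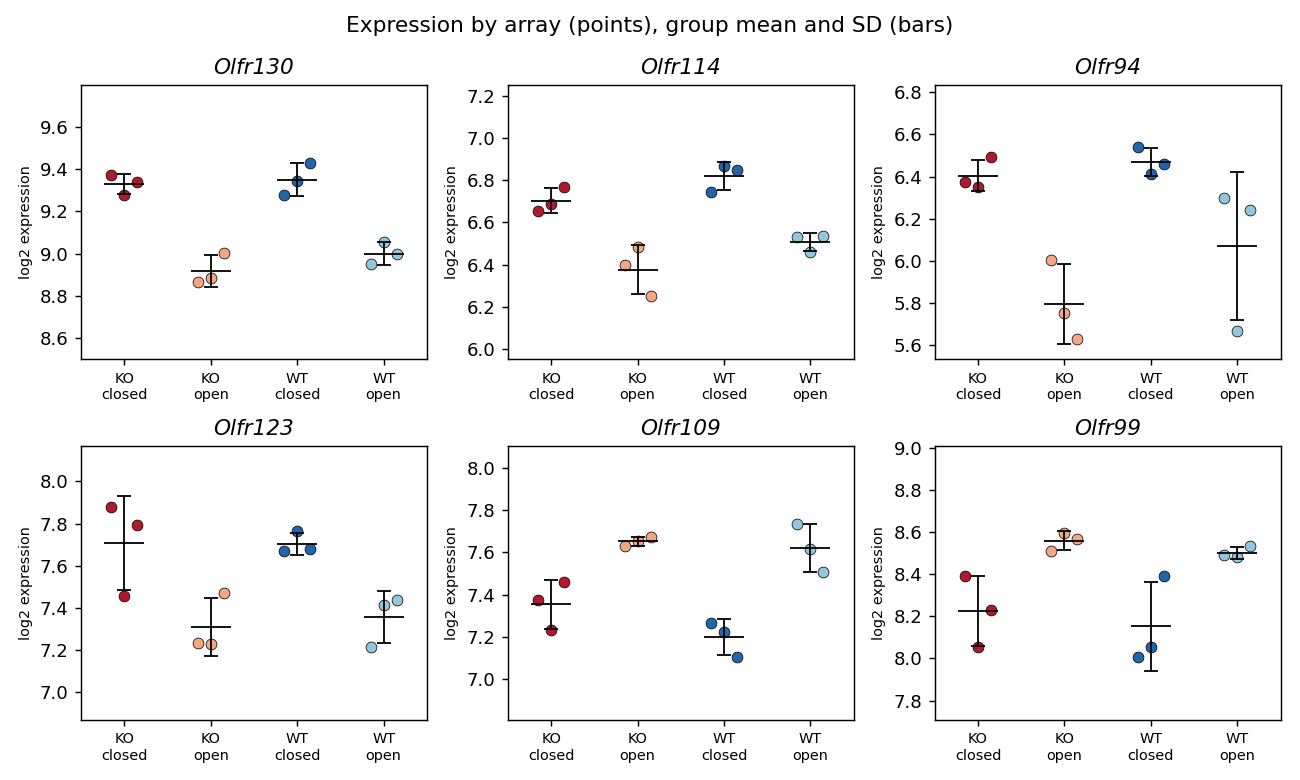
Log2 expression (vertical axis) of the 6 members called over all probe sets, by array, on the closed and open sides of H2be-KO and WT mice (horizontal axis). Points are arrays, and bars are the mean and SD of 3 arrays; closed-side points of Olfr130, Olfr114 and Olfr94 lie above and those of Olfr109 and Olfr99 below the open-side points of the same genotype.

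The start of the coding sequence of these 6 receptors is printed to identify the genes that carry the calls. The first 50 bases were taken from RefSeq on GRCm38.p6, with the start codon in capitals, from chr17:38067173-38067222 on the plus strand for Olfr130, chr17:37590302-37590351 (minus) for Olfr114, chr17:37197917-37197966 (minus) for Olfr94, chr17:37795446-37795495 (plus) for Olfr123, chr17:37466208-37466257 (plus) for Olfr109 and chr17:37280369-37280418 (minus) for Olfr99.
Olfr130: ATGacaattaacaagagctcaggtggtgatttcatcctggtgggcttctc
Olfr114: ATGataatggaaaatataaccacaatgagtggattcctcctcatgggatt
Olfr94: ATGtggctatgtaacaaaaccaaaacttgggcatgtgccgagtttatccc
Olfr123: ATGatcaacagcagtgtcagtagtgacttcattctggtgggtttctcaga
Olfr109: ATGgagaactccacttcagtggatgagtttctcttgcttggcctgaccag
Olfr99: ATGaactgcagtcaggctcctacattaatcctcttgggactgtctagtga
Position by position, Olfr123 and Olfr130 shared 19 of these 50 bases, and Olfr109 and Olfr99 shared 14. No gaps were allowed, so like stretches that are offset, as between Olfr123 and Olfr130, were not counted.

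Of the receptors called only over OR genes, Olfr116, Olfr131 and Olfr132 were higher on the closed side. Olfr116 read 9.06, 9.005 and 9.06 on the closed side and 8.67, 8.60 and 8.71 on the open side of KO mice, and 8.94, 8.94 and 8.94 on the closed side and 9.06, 8.74 and 8.73 on the open side of WT mice. The sides were apart in the KO and overlapped in the WT, where the first open-side array was the highest of its genotype. Its change was 0.38 ± 0.10 (SE) in the KO (adjusted p = 0.027 over OR genes, limma) and 0.10 ± 0.10 (SE) in the WT (adjusted p = 0.57), and the test of the difference between the genotypes gave 0.29 ± 0.14 (SE, adjusted p = 0.996). The KO call was lost without any 1 of the 6 KO arrays, with adjusted p up to 0.075. On average the change of Olfr116 was 0.24 ± 0.07 (SE, adjusted p = 0.0229 over OR genes, limma). That call was lost without any 1 of 3 arrays, with adjusted p up to 0.0559.

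Olfr131 read 8.22, 8.42 and 8.36 on the closed side and 8.14, 8.17 and 8.18 on the open side in the KO, and 8.52, 8.54 and 8.62 on the closed side and 8.35, 8.36 and 8.19 on the open side in the WT. The closed side was above the open side in both genotypes, by 0.22 ± 0.06 (SE) on average (adjusted p = 0.022 over OR genes, limma), a call lost without any 1 of 4 arrays, with adjusted p up to 0.055. For Olfr132 the arrays read 7.86, 8.09 and 7.77 on the closed side and 7.72, 7.89 and 7.78 on the open side in the KO, where they overlapped, and 7.88, 7.86 and 8.09 on the closed side and 7.57, 7.68 and 7.51 on the open side in the WT, where they did not. Its change was 0.11 ± 0.11 (SE) in the KO and 0.36 ± 0.11 (SE) in the WT (adjusted p = 0.0479 over OR genes), and the WT call was lost in 16 of 21 settings, among them the omission of any 1 of 11 arrays. On average the change of Olfr132 was 0.24 ± 0.08 (SE, adjusted p = 0.0414), a call lost without any 1 of 7 arrays, with adjusted p up to 0.094, or with median centring (adjusted p = 0.0557).

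Olfr90, Olfr96, Olfr97 and Olfr125 were lower on the closed side over OR genes. Olfr90 read 7.29, 7.18 and 7.33 on the closed side and 7.47, 7.52 and 7.50 on the open side of KO mice, and 7.46, 7.45 and 7.26 on the closed side and 7.72, 7.55 and 7.56 on the open side of WT mice, without overlap in either genotype. Its average change was -0.23 ± 0.06 (SE, adjusted p = 0.0225, limma), lost at up to 0.0577 without the second closed-side array of the KO or the first open-side array of the WT, and at 0.0714 with a trended, robust fit. Olfr97 read 7.35, 7.18 and 7.18 on the closed side and 7.51, 7.58 and 7.57 on the open side in the KO, and 7.42, 7.22 and 7.41 on the closed side and 7.41, 7.67 and 7.56 on the open side in the WT, where they overlapped narrowly. The average change of Olfr97 was -0.26 ± 0.07 (SE, adjusted p = 0.0175), and no single array ended this call.

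Olfr96 read 7.18, 7.10 and 7.48 on the closed side and 7.40, 7.66 and 7.79 on the open side of KO mice, with overlap, and 7.52, 7.39 and 7.15 on the closed side and 7.60, 7.53 and 7.63 on the open side of WT mice, without. Its average change was -0.30 ± 0.10 (SE, adjusted p = 0.0396 over OR genes, limma), a call lost without any 1 of 9 arrays, with adjusted p up to 0.0926, or with array weights (adjusted p = 0.0821). Olfr125 read 7.01, 7.04 and 6.96 on the closed side and 7.23, 7.16 and 7.57 on the open side in the KO, which were apart, and 7.15, 7.42 and 7.09 on the closed side and 7.37, 7.67 and 7.44 on the open side in the WT, which overlapped. Its average change was -0.30 ± 0.09 (SE, adjusted p = 0.035), lost without any 1 of 8 arrays, with adjusted p up to 0.0722.

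Within a single genotype fewer members passed. In H2be-KO mice 4 members were called over OR genes, Olfr94, Olfr114, Olfr116 and Olfr130, all higher on the closed side. That is 10.53% of the members, where 12.0% of OR genes were called, and the count over all probe sets was 1 member (2.63%), where 1.05% of probe sets were called. In WT mice 3 members were higher (Olfr114, Olfr130 and Olfr132) and 1 was lower (Olfr109) over OR genes, again 10.53%, where 13.0% of OR genes were called. Over OR genes the KO count was 1 without the first or the third closed-side array or the third open-side array of the KO and 2 without any 1 of its other arrays. The WT count was 0 without the first open-side array of the WT, 1 without the third open-side array, and 2 without the second open-side array, without the second or the third closed-side array of the WT or without the first open-side array of the KO. Over all probe sets 0 members passed in the WT, where 0.855% of probe sets were called, and 10 members (26.3%) had an unadjusted p under 0.05 (limma), against 25.6% of all OR genes and 9.34% of all probe sets. In the KO the closed and open arrays did not overlap for 14 members (5 higher, 9 lower). That is 36.8%, against 31.7% of the OR genes outside the cluster and 17.3% of all probe sets tested. In the WT they did not overlap for 11 members (6 higher, 5 lower), or 28.9%, against 27.9% and 13.2%.

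More members lay below 0 than above it in both genotypes. The median change of the 38 members was -0.10 in the KO, against 0.05 for the OR genes outside the cluster and 0.02 for all probe sets tested. Of the members 13 (34.2%) had a change above 0 in the KO, against 57.3% of the other OR genes. In the WT the median of the members was -0.02, against 0.01 for the other OR genes and -0.01 for all probe sets, and 17 members (44.7%) were above 0, against 52.2%. The WT median changed sign, to 0.0009, when arrays were centred on their medians. These medians are descriptions, with no test of the cluster against other receptors.

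The direction of change was mostly shared by the genotypes. Of the 38 members 30 had the same sign of change in the KO and the WT, 11 above 0 and 19 below 0, which is 78.9% against 76.5% of the 946 other OR genes tested. Across the 38 genes the KO and WT changes, which share no arrays, correlated with r = 0.769 (Spearman's rho 0.742), and across the other OR genes with r = 0.769. Genes are not independent replicates, and close copies can share probes.

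The signs of the average change were followed along the chromosome. Neighbouring members shared a sign about as often as neighbouring OR genes outside the cluster did (62.2% against 58.6% of pairs). Over all 38 members 34.2% were above 0 on average, against 54.7% of the OR genes outside the cluster. The annotation has its wider gaps after Olfr103, Olfr125, Olfr127 and Olfr134, and the groups these gaps make were looked at after the values were known. In the first group, Olfr90 to Olfr103, 9 of 11 members were below 0 on average, with a median of -0.22, and the exceptions were Olfr94 and Olfr103 (0.03). Olfr90, Olfr96, Olfr97 and Olfr99 of this group were called lower over OR genes and Olfr94 was called higher. In the group from Olfr107 to Olfr125, 12 of 18 tested members were below 0, with a median of -0.06. Here Olfr114, Olfr116 and Olfr123 were called higher and Olfr109 and Olfr125 lower.

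The group from Olfr129 to Olfr134 differed in sign, with 4 of 6 members above 0 and a median of 0.23. The consecutive genes Olfr130, Olfr131, Olfr132 and Olfr133 were above 0 in both genotypes, and the flanking Olfr129 (-0.20) and Olfr134 (-0.08) were below 0 on average. Olfr133, which was not called, read 6.06, 5.93 and 6.21 on the closed side and 5.55, 6.04 and 5.87 on the open side of KO mice, and 5.80, 6.40 and 6.08 on the closed side and 5.70, 5.96 and 5.63 on the open side of WT mice, with overlap in each. The lone Olfr127 had an average change of 0.12, and Olfr137 and Olfr136 had -0.02 and -0.13. Neighbouring members had the same sign in 23 of 37 pairs (62.2%, r = 0.139), against 58.6% of 929 neighbouring pairs of other OR genes (r = 0.22).

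The side changes of near relatives were set side by side. The windows around the annotated starts could be aligned for 31 of the 39 members, in 465 pairs with a median identity of 46.4%. Of these, 8 pairs had an identity of 70% or more, 1 of them Olfr107 with the untested Olfr108. The pair with the highest identity was Olfr113 and Olfr114, at 85.9% of the aligned window and 47 of the first 50 coding bases. Olfr114 was higher on the closed side by 0.32, whereas Olfr113, with 6.15, 6.61 and 6.20 on the closed side and 6.05, 6.53 and 6.14 on the open side of KO mice and 6.32, 6.28 and 6.60 on the closed side and 6.40, 6.54 and 6.27 on the open side of WT mice, had an average change of 0.04 ± 0.11 (SE) with overlap in both genotypes. Their neighbour Olfr115, whose window was 75.6% identical to that of Olfr114, had -0.06 ± 0.13 (SE), and Olfr113 and Olfr115 shared 73.5%. The difference in change between genes was not tested.

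Olfr119 and Olfr122 came next, with 81.4% of the window, and changed by -0.22 ± 0.11 (SE) and 0.05 ± 0.10 (SE) on average, neither of them called. Olfr97 and Olfr99, consecutive among the members along the chromosome and 74.6% identical in the window, were both called lower over OR genes, at -0.26 ± 0.07 (SE) and -0.34 ± 0.08 (SE). Olfr118 and Olfr120 shared 73.8% of the window, and neither was called, with -0.19 ± 0.10 (SE) and -0.04 ± 0.08 (SE). Near relatives thus included a pair called in the same direction as well as pairs in which 1 gene or neither was called.

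Olfr133 and Olfr134 shared 46 of 50 coding bases and 75.8% of the window, with average changes of 0.29 ± 0.12 (SE) and -0.08 ± 0.21 (SE). The probe set of Olfr134 was just above the filter at a mean of 5.36, and its arrays were scattered, with 5.59, 5.34 and 5.69 on the closed side and 5.93, 5.34 and 5.37 on the open side in the KO, and 4.66, 4.89 and 5.72 on the closed side and 5.77, 5.20 and 4.77 on the open side in the WT. Olfr92 and Olfr93 fell short of 70%, with 56.5% of the window, but shared 45 of 50 coding bases, and their average changes were -0.02 ± 0.07 (SE) and -0.21 ± 0.10 (SE). The coding starts of the relatives that shared 45 or more of these 50 bases are printed, with the start codon in capitals. They show the small number of differing bases, which probes may or may not resolve. The bases were compared without gaps, so relatives with offset starts, such as Olfr97 with Olfr99 and Olfr118 with Olfr120, are not among them. The printed starts come from chr17:37575372-37575421 on the minus strand for Olfr113, chr17:38148590-38148639 (plus) for Olfr133, chr17:38175086-38175135 (plus) for Olfr134, chr17:37111931-37111980 (minus) for Olfr92 and chr17:37151921-37151970 (minus) for Olfr93 of GRCm38.p6, and Olfr113 is set against Olfr114 above.
Olfr113: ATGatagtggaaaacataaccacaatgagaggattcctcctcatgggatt
Olfr133: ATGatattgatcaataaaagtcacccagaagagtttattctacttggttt
Olfr134: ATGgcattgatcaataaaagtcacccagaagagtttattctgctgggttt
Olfr92: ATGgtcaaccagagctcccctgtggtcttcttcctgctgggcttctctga
Olfr93: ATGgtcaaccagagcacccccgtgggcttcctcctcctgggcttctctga

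**Figure D3:**
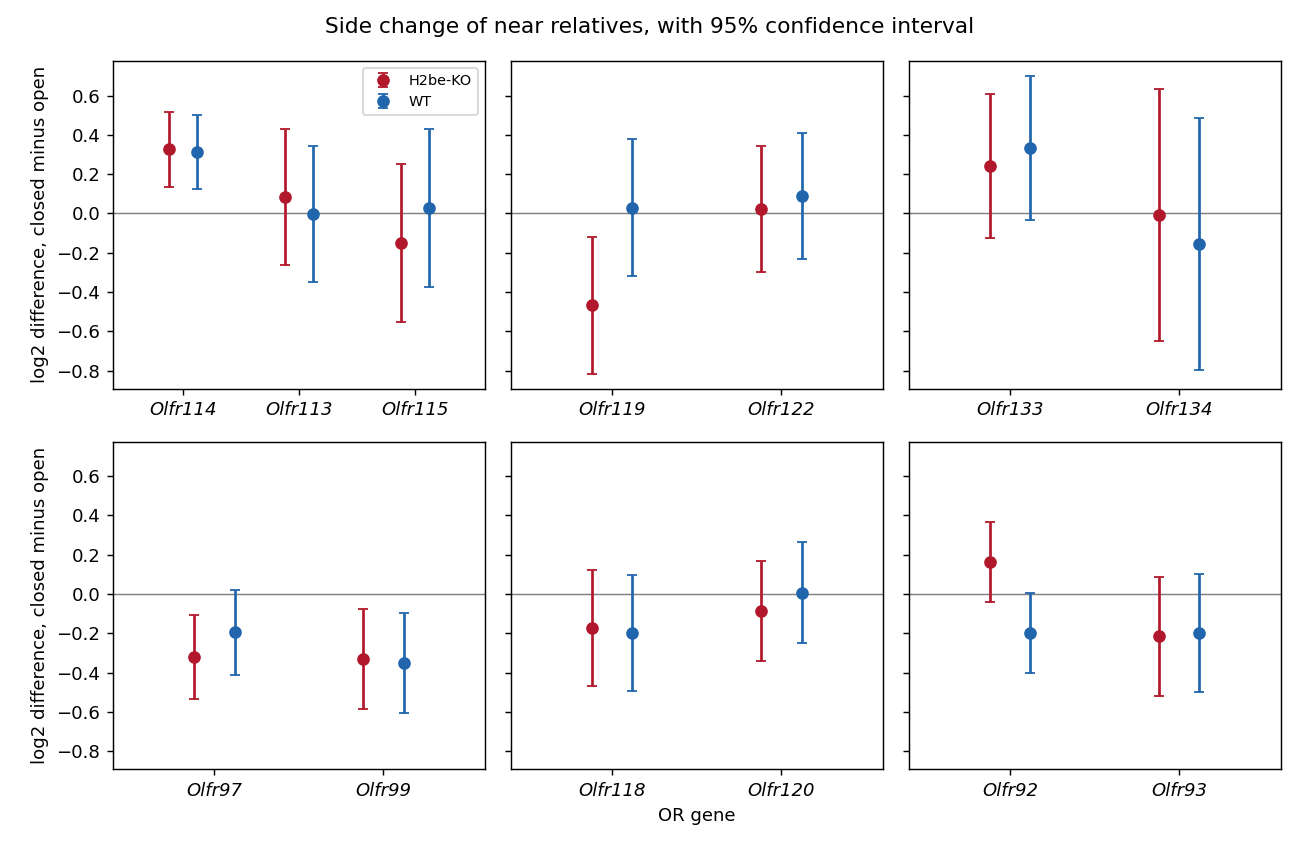
Log2 difference between the closed and the open side (vertical axis) in H2be-KO and WT mice for near relatives (horizontal axis, relatives in a shared panel), with the 95% confidence interval of the limma fit. Both intervals of Olfr114 lie above 0 and both of Olfr99 below 0, the KO intervals of Olfr97 and Olfr119 lie below 0, and the other intervals include 0.

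OR promoters are known to carry sites for homeodomain proteins such as Lhx2 and for Ebf (O/E) factors, so the windows were searched for 3 motifs on both strands. A window held 250 bases before the annotated start and 50 after it. In 19 of the 31 windows the annotated start was the start codon, so that the last 50 bases are coding sequence and the 250 bases before them may miss the promoter. TAATTA was found in 4 members (12.9%), against 18.8% of windows of other OR genes and 5.29% of all 32851 windows. The wider TAATNA, which includes TAATTA, was found in 15 members (48.4%), against 66.5% and 26.5%. CCCNNGGG was found in 4 members (12.9%), against 2.74% and 13.7%.

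The TAATTA matches lay in Olfr123 and Olfr132, which were called higher on the closed side, and in Olfr124 and Olfr134, which were not called (-0.08 and -0.08). Each is printed with up to 10 bases on either side and the match in capitals, from chr17:37795356-37795381 (plus) for Olfr123, chr17:38131419-38131440 (minus) for Olfr132, chr17:37804937-37804962 (plus) for Olfr124 and chr17:38174883-38174908 (plus) for Olfr134 of GRCm38.p6. Counted from the annotated start, the match began at -80 in Olfr123, -244 in Olfr132, -122 in Olfr124 and -193 in Olfr134.
Olfr123: tcagcattttTAATTAttttatagac
Olfr132: gagttaTAATTAgatataaagc
Olfr124: aaccagccatTAATTAagcaacattc
Olfr134: tatttttaccTAATTActgatagtaa
CCCNNGGG occurred in Olfr93, Olfr96, Olfr99 and Olfr108, of which Olfr96 and Olfr99 were called lower, Olfr93 was not called (-0.21) and Olfr108 was not tested. A match of letters is not a measured binding site, and its part in any change was not tested.

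The second question was whether the cluster differed between H2be-KO and WT mice on the same side. On the open side 0 of 38 members were called by limma, either over all probe sets, where 0.0215% were called, or over OR genes, where 0% were. The differences between KO and WT ran from -0.37 to 0.39 with a median of 0.01, and 2 members, Olfr107 and Olfr92, both lower in the KO, had an unadjusted p under 0.05, which is 5.26%, against 6.91% of OR genes and 6.67% of all probe sets. On the closed side 0 members were called as well, where 0.0245% of probe sets and 0% of OR genes were called, with differences from -0.39 to 0.45, a median of -0.03 and 3 members (Olfr107, Olfr119 and Olfr131), all lower in the KO, at an unadjusted p under 0.05. These are 7.89% of the members, against 6.71% of OR genes and 4.26% of all probe sets, so on neither side did the share stand far from the background. The median half-width of a 95% confidence interval, not adjusted for the number of tests, was 0.30. This is a measure of precision and not a limit of detection for the adjusted calls. Differences above that size could also go uncalled, as the -0.39 of Olfr107 did. The absence of calls therefore does not show that KO and WT were alike.

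Olfr107 had the largest difference toward lower levels in the KO on both sides. Its arrays read 6.82, 6.58 and 6.99 in the KO against 6.95, 7.14 and 7.46 in the WT on the closed side, and 7.04, 6.93 and 6.84 in the KO against 7.28, 7.23 and 7.42 in the WT on the open side. All KO arrays lay below all WT arrays on the open side, and on the closed side the highest KO array passed the lowest WT array. The difference was -0.39 ± 0.14 (SE) on the closed side (adjusted p = 0.695 over OR genes, limma) and -0.37 ± 0.14 (SE) on the open side (adjusted p = 0.562). Olfr92 read 6.93, 7.23 and 7.11 in the KO against 7.47, 7.43 and 7.34 in the WT on the open side, without overlap, a difference of -0.32 ± 0.09 (SE, adjusted p = 0.482).

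Olfr111 and Olfr134 had the largest differences toward higher levels in the KO on the open side. Olfr111 read 7.03, 7.27 and 7.01 in the KO against 6.46, 6.98 and 6.68 in the WT, which did not overlap, a difference of 0.39 ± 0.23 (SE, adjusted p = 0.765 over OR genes, limma). Olfr134 differed by 0.30 ± 0.29 (SE) on the open side and 0.45 ± 0.29 (SE) on the closed side, with overlapping arrays on both (adjusted p = 0.88 and 0.914). On the closed side Olfr118 read 6.26, 6.36 and 6.36 in the KO against 5.81, 6.16 and 6.44 in the WT, a difference of 0.19 ± 0.14 (SE) with overlap (adjusted p = 0.915). Also on the closed side, Olfr119 read 6.86, 7.19 and 6.85 in the KO against 7.24, 7.45 and 7.36 in the WT, with all KO arrays below all WT arrays and a difference of -0.38 ± 0.16 (SE, adjusted p = 0.722).

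By overlap of arrays alone, KO and WT were apart on the open side for 10 members, 4 higher and 6 lower in the KO. That is 26.3%, against 11.3% of the OR genes outside the cluster and 12.4% of all probe sets tested. On the closed side KO and WT were apart for 4 members, 1 higher and 3 lower (10.53%), against 11.1% and 8.82%. Olfr131 was below the WT on both sides without overlap, by -0.23 ± 0.09 (SE) on the closed side and -0.14 ± 0.09 (SE) on the open side. Olfr116 lay above the WT on the closed side, by 0.10 ± 0.10 (SE), and below it on the open side, by -0.19 ± 0.10 (SE), without overlap on either. These counts carry no test, and none of the genes they contain was called.

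**Figure D4:**
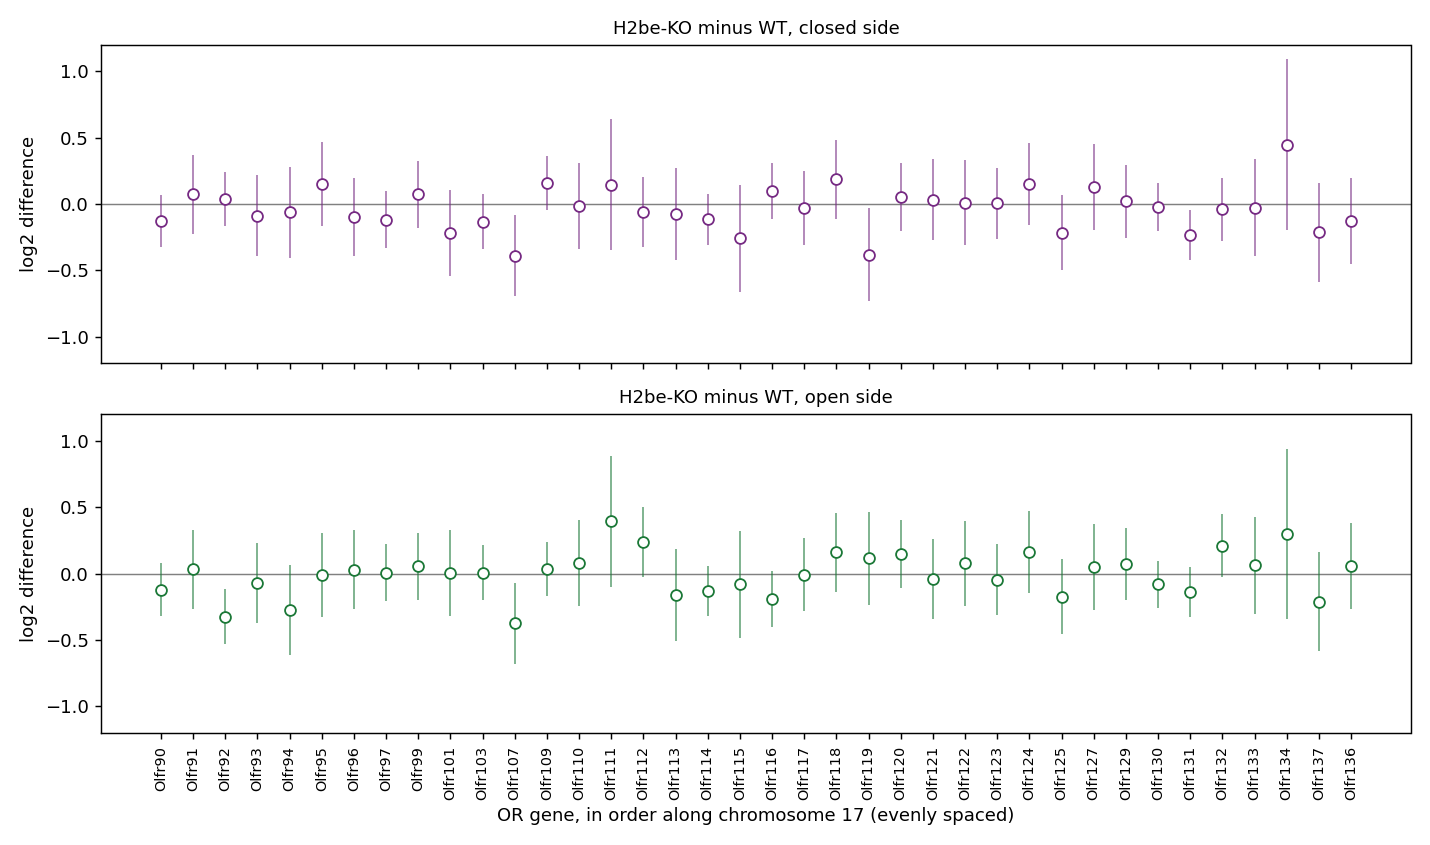
Log2 difference between H2be-KO and WT mice (vertical axis) for the 38 members in chromosome order (horizontal axis), on the closed side (top) and the open side (bottom), with 95% confidence intervals of the limma fit. No point is filled, since no member had an adjusted p under 0.05 over OR genes; the estimates run from -0.39 to 0.45 on the closed side and from -0.37 to 0.39 on the open side.

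The third question was whether the effect of UNO on these receptors differed between the genotypes. The difference of the side changes, KO minus WT, was called for 0 of 38 members (limma), where 0% of all probe sets and 0% of OR genes were called. At an unadjusted p under 0.05 there were 2 members (5.26%), against 3.35% of OR genes and 4.01% of all probe sets. The differences ran from -0.50 to 0.36, with a median of -0.02 and a median half-width of 0.42. These members were Olfr119 and Olfr92. Olfr119 read 6.86, 7.19 and 6.85 on the closed side and 7.29, 7.51 and 7.51 on the open side of KO mice, and 7.24, 7.45 and 7.36 on the closed side and 7.54, 7.49 and 6.93 on the open side of WT mice. The KO sides were apart, with the closed side lower, and the WT sides overlapped. Its side change was -0.47 ± 0.16 (SE) in the KO and 0.03 ± 0.16 (SE) in the WT. The difference between the genotypes was -0.50 ± 0.23 (SE, adjusted p = 0.996 over OR genes, unadjusted 0.0484).

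Olfr92 had opposite signs, 0.16 ± 0.09 (SE) in the KO and -0.20 ± 0.09 (SE) in the WT. It read 7.17, 7.29 and 7.28 on the closed side and 6.93, 7.23 and 7.11 on the open side of KO mice, which overlapped, and 7.16, 7.25 and 7.23 on the closed side and 7.47, 7.43 and 7.34 on the open side of WT mice, which did not. The difference between the genotypes was 0.36 ± 0.13 (SE, adjusted p = 0.996 over OR genes, unadjusted 0.0189, limma). Olfr112 read 6.56, 6.43 and 6.68 on the closed side and 6.75, 6.89 and 6.59 on the open side in the KO, and 6.70, 6.38 and 6.76 on the closed side and 6.56, 6.45 and 6.51 on the open side in the WT. Its side changes were -0.18 ± 0.12 (SE) and 0.11 ± 0.12 (SE), with overlap in both genotypes, and they differed by -0.30 ± 0.17 (SE, adjusted p = 0.996).

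The remaining members were between -0.28 (Olfr95) and 0.29 (Olfr133) on average and were called in no comparison. They were Olfr91, Olfr92, Olfr93, Olfr95, Olfr101, Olfr103, Olfr107, Olfr110, Olfr111, Olfr112, Olfr113, Olfr115, Olfr117, Olfr118, Olfr119, Olfr120, Olfr121, Olfr122, Olfr124, Olfr127, Olfr129, Olfr133, Olfr134, Olfr136 and Olfr137. Olfr108, below the filter, read 3.58, 3.87 and 4.83 on the closed side and 3.93, 4.02 and 3.57 on the open side of KO mice, and 4.09, 4.27 and 4.55 on the closed side and 4.50, 4.57 and 4.79 on the open side of WT mice. The sides overlapped in both genotypes.

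A chosen list of other genes of the MHC region was counted beside the receptors. Their distances to the receptors were not measured, so they are not to be read as immediate neighbours. Of these 42 genes, which include class I genes of the H2-M family, 41 were on the array and 39 were tested. Over all probe sets, 0 were called in the WT and 1 was higher in the KO, where 0.855% and 1.05% of all probe sets were called. Averaged over the genotypes 1 was higher and 1 was lower, where 2.90% of all probe sets were called. The median change of the 39 was -0.03, against -0.06 for the 38 receptors and 0.003 for all probe sets. The higher one was Nrm, which encodes the nuclear envelope protein nurim, at 0.40 (adjusted p = 0.00476, limma), and the lower one was Tubb5, a beta-tubulin, at -0.24 (adjusted p = 0.0462).

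Genes with known roles in choosing, transporting and reading ORs in OSNs were counted in the same way. Of 24 such genes, all tested, 8 were higher on the closed side on average and 0 were lower, with a median of 0.06, where 2.90% of all probe sets were called. The list holds all 8 markers of mature OSNs counted above, so 6 of its 8 calls are those marker calls, and 2 of its other 16 genes (Cngb1 and Reep1) were called. Higher were the receptor transport proteins Rtp1 (0.27) and Reep1 (0.28), the G protein Gnal (0.31), the cyclase Adcy3 (0.29), the subunits of the cyclic nucleotide-gated channel Cnga2 (0.26), Cnga4 (0.40) and Cngb1 (0.38), and the chloride channel Ano2 (0.37). Lhx2, which encodes a homeodomain protein of OR promoters, was not called at 0.02 (adjusted p = 0.927, limma), and Omp, a marker of mature OSNs, was not called at 0.03 (adjusted p = 0.91). Within a genotype, Cnga4, Cngb1 and Ano2 were called in the KO and Cnga4 in the WT.

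The levels of the cell type markers were as follows. Of 8 markers of mature OSNs 6 were higher on the closed side on average and 0 lower (median 0.28), and their mean log2 level was 11.42 to 11.46 on the closed side and 11.10 to 11.21 on the open side of KO mice, and 11.34 to 11.45 on the closed side and 11.12 to 11.15 on the open side of WT mice. Of 6 markers of immature OSNs 5 were lower and 0 higher (median -0.27), with a mean level of 9.72 to 9.85 on the closed side and 9.98 to 10.08 on the open side of KO mice, and 9.69 to 9.80 on the closed side and 10.04 to 10.07 on the open side of WT mice. Among 5 basal cell markers tested 1 was lower. None of the markers of sustentacular cells (5), respiratory ciliated cells (5), glands (5), immune cells (5) and vomeronasal neurons (2) was called, and the vomeronasal receptor gene Vmn1r53 lay below the filter.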

How the data were processed

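Expression was measured in 12 samples, 3 per group, on Affymetrix Mouse Gene 1.0 ST arrays. Per the labels the authors used Affymetrix Expression Console and limma; by the study's methods they normalized by sketch-quantile and summarised by IterPLIER, and the values they deposited are log2 levels, 1 for each array and probe set, with 0 missing. The rest was computed here with R 4.3.3, limma 3.58.1 and data.table (version 1.17.8); sequences and figures used Python 3.11.15, Biopython 1.88 and matplotlib 3.10.9. Symbols came from the platform annotation. Probe sets with a mean log2 of 5 or less (2941) were left out. The other 32615 entered a limma fit of 4 group means (lmFit, eBayes), with 6 contrasts and 11.5 degrees of freedom. Tests were two-sided. Benjamini-Hochberg adjusted p under 0.05 counted as called, adjusted over all probe sets and, as in the study's methods, over the 984 OR genes above the filter. Log2 changes are closed minus open side, or KO minus WT. In simulated data 200 probe sets were changed on the closed side of the WT, and only the WT side comparison was scored. It recovered 17% of those changed by 0.5 (log2) and 87% of those changed by 1, with 3.7% false calls.

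Per-array values are given for members called in any comparison, those with the largest differences and those at the filter. The members, the gene lists and the motifs were chosen with earlier results of these data known. Nothing says that samples came from separate litters, so p-values measure only the spread between these samples. Where on a transcript each probe lies was not known here. Alternatives were other filters, scalings, fits and the omission of each array.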

Additional observations from a re-analysis of the deposited data

How the results depend on the processing

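Over 28 calls of single members and the alternatives tried, 413 of 555 values kept their call, 142 lost it and 0 changed sign. The calls kept under every alternative over OR genes were the averaged changes of Olfr94, Olfr99, Olfr109, Olfr114, Olfr123 and Olfr130 and the KO change of Olfr130. The count of members called on average was 6 over all probe sets and 13 over OR genes, and without each array in turn it lay between 2 and 5 and between 8 and 14. In the KO the counts of 1 and 4 lay between 0 and 1 and between 1 and 5, and in the WT the count of 4 over OR genes lay between 0 and 5. With only probe sets above a mean log2 of 7, the count over all probe sets was 2 in the WT and 2 in the KO, and that over OR genes in the KO was 7. With a trended and robust fit the counts over all probe sets were 1 in the WT and 2 in the KO. Centring arrays on their medians gave 0 in the KO over all probe sets, array weights gave 8 in the KO over OR genes, and a fit to only the arrays compared gave 0 in the KO over all probe sets and 0 in the WT over OR genes. Same-numbered closed and open samples deviated together with r from 0.0256 to 0.233 in the KO and from -0.00903 to 0.169 in the WT, so the numbers were not taken as pairs. Such values cannot show that the samples were unpaired, and the side tests treated closed and open samples as independent. With the replicate block the counts over all probe sets were 0 in the KO and 2 on average, and those over OR genes were 2 in the WT, 3 in the KO and 12 on average, and the WT count over all probe sets stayed at 0. Each sample was tissue from 1 side of the MOE, and which closed and open samples came from the same mice is not given in the sources used here. On average the block ended the calls over all probe sets of Olfr94 (adjusted p = 0.0638), Olfr99 (0.101), Olfr114 (0.0742) and Olfr123 (0.0648) and the calls over OR genes of Olfr97 (0.0511) and Olfr132 (0.0522). Within a genotype it ended those of Olfr130 over all probe sets in the KO (0.12) and, over OR genes, of Olfr114 in the KO (0.0702) and the WT (0.073) and of Olfr132 in the WT (0.0601), and it ended no other call. The cause of these shifts was not tested. No alternative called a member between KO and WT on either side or in the difference of the side changes. With 3 arrays a group, most log2 changes of 0.5 within 1 genotype would be missed over all probe sets, and close copies may share probes.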

Other observations

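Probe sets that carry several symbols of the cluster were kept out of the counts above. The one shared by Olfr90 and Olfr92 was lower on the closed side, with a log2 level of 8.11, 8.13 and 7.94 on the closed side and 8.25, 8.35 and 8.32 on the open side of KO mice, and 8.04, 7.90 and 8.12 on the closed side and 8.45, 8.46 and 8.25 on the open side of WT mice. The sides did not overlap in either genotype, and the average change was -0.31 ± 0.07 (SE; adjusted p = 0.0359 over all probe sets, limma). Its own probe set gave Olfr90 a change of -0.23 and Olfr92 a change of -0.02. The other shared probe sets were not called. The pseudogene Olfr106-ps, which lies within the cluster, read 6.73, 6.53 and 7.14 on the closed side and 7.45, 7.36 and 6.996 on the open side of KO mice, with overlap. It changed by -0.47 ± 0.17 (SE) in the KO and -0.05 ± 0.17 (SE) in the WT, with adjusted p of 0.316 and 0.972 (limma).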
